A study of Mus musculus with 32 samples.

Results

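A set of genes that describe the state of macrophages, or the resident kind of macrophage, was followed through primary tumors and lungs of mice that had or lacked *Clic4*. The list held 10 genes, found by symbol among the 29511 gene rows of the count table and the 29434 rows of the FPKM table, and 9 of them are described: *Nos2*, *Mrc1*, *Cd163*, *Retnla*, *Fcrls*, *Lyve1*, *Folr2*, *Cx3cr1* and *Csf1r*. The list was selected by name with earlier results of these data known, and the values that chose it include the difference between tumors of KO and WT hosts. That difference is therefore given for these genes as a description, and no evidence is read from any limit that a gene passed in it. All 9 genes passed the filter on low counts in every fit.

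Macrophages are phagocytes that take up different programs in response to their surroundings. Interferon gamma and microbial products drive classical activation, in which *Nos2* makes nitric oxide from arginine. The cytokines IL-4 and IL-13 drive alternative activation, in which the mannose receptor *Mrc1* and the secreted protein *Retnla* are raised. Other genes mark macrophages that settle in tissue: *Cd163* takes up hemoglobin bound to haptoglobin, *Lyve1* binds hyaluronan, *Folr2* binds folate, and *Fcrls* is an Fc receptor-like gene best known from microglia. *Cx3cr1* is the fractalkine receptor of monocytes and many resident macrophages. *Csf1r* is the receptor through which CSF1 and IL-34 keep many macrophages alive.

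All hosts were female mice of the FVB/N strain, either WT or with a constitutive *Clic4* deletion (KO). For tumors, 6DT1 cells, a line from a mammary tumor of a Myc transgenic mouse, were placed in a mammary fat pad, and tumors of 6 KO and 6 WT hosts were taken after 14 days. Lungs came from 6 KO and 6 WT hosts at 14 days, a stage the study calls premetastatic, and from 4 KO and 4 WT control mice without a tumor. The 6DT1 cells carry an intact *Clic4* in both hosts, so the deletion in a tumor covers host cells alone. Hosts were 6 to 8 weeks old by the study's methods. Each library came from bulk tissue, in which fewer macrophages and less RNA per macrophage cannot be told apart.

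The targeted gene followed the labels in the lungs. *Clic4* had between 55.4 and 74.6 FPKM (fragments mapped per kilobase of transcript, scaled to library size) in the 10 KO lungs and between 154.6 and 229.7 in the 10 WT lungs. The deletion is around exon 2, and a count per gene takes in the other exons too. In tumors the 2 groups were closer, with 58.9 to 69.0 FPKM in KO hosts and 74.7 to 82.2 in WT hosts. Libraries held between 4446323 and 8318711 counts. Macrophage genes were present in both tissues. The macrophage surface gene *Adgre1* had median levels of 17.89 and 19.61 FPKM in the tumor groups and 6.35 to 7.66 in the lung groups. The summed FPKM of the 15 genes of a pan-macrophage list was 1332 to 2478 in KO tumors, 727.0 to 1794 in WT tumors, 1864 to 2741 in 14-day KO lungs and 2102 to 2418 in 14-day WT lungs. The lysozyme gene *Lyz2*, which alveolar type II cells also express, made up most of the lung sums, with group medians of 1909 to 2308 FPKM against 461.6 and 552.0 in tumors, so these sums do not compare macrophages between tissues.

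The same genes stood in a different order in the 2 tissues. By median FPKM, which is corrected for gene length, KO tumors were led by *Retnla* (107.1), *Mrc1* (68.7) and *Csf1r* (44.9), and *Cx3cr1* was lowest (2.68). WT tumors were led by *Mrc1* (83.7), *Retnla* (64.9) and *Csf1r* (38.2), and *Nos2* was lowest (4.475). In KO tumors *Nos2* came next after *Folr2*. In 14-day WT lungs the order opened with *Lyve1* (70.05), *Retnla* (53.8), *Csf1r* (26.8) and *Mrc1* (22.4), while each of the other 5 genes had a median under 4 FPKM. Most neighbours in these 3 orders had ranges over samples that overlapped. The exceptions were *Csf1r* above *Folr2* in KO tumors, and *Mrc1* above *Cx3cr1* and *Cd163* above *Nos2* in 14-day WT lungs.

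**Figure D1:**
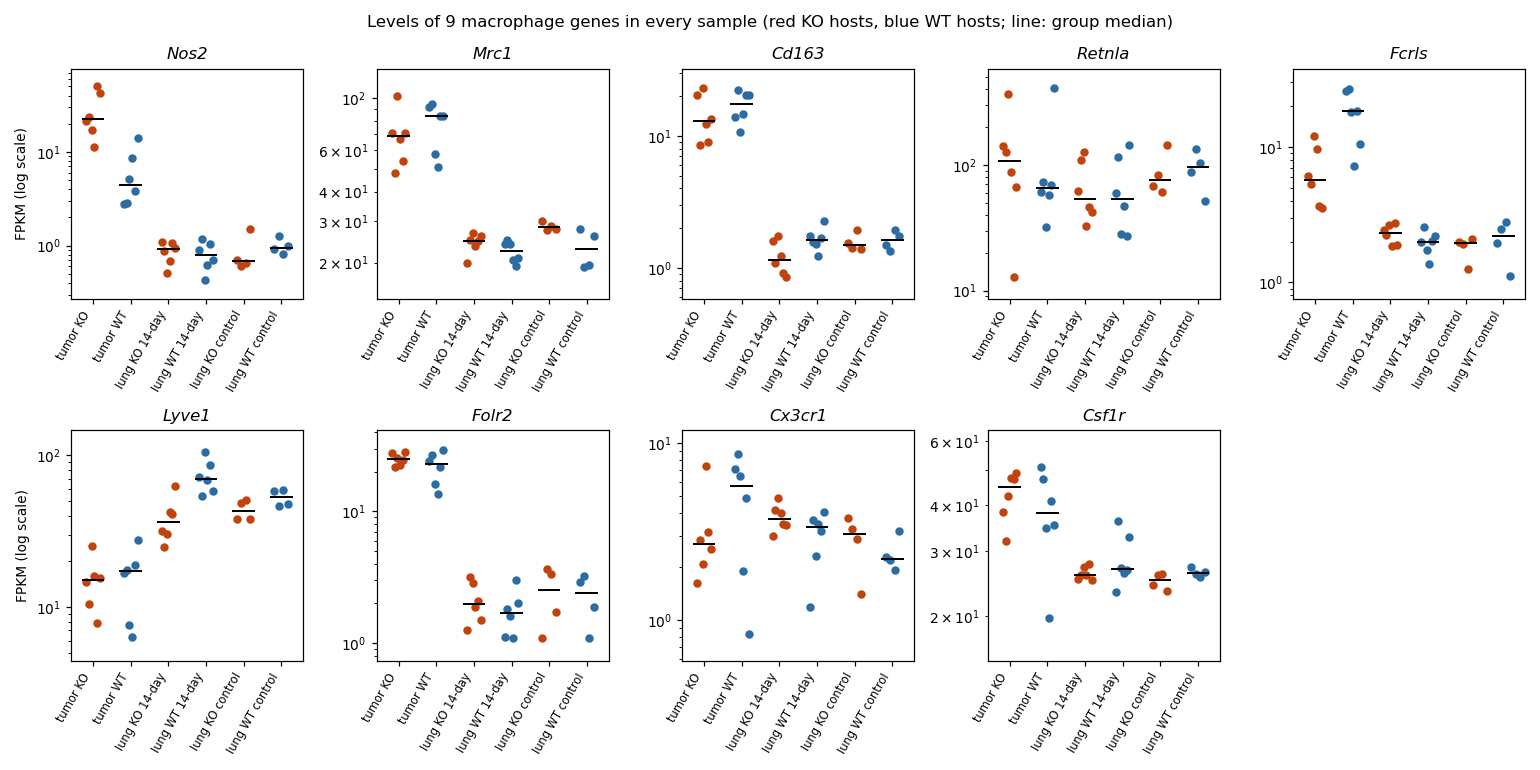
FPKM of each gene (log axis) in each of the 32 samples, with 6 samples in each tumor group and each 14-day lung group and 4 in each control lung group; black lines are group medians. *Cd163* and *Folr2* were far higher in tumors than in lungs, *Lyve1* was higher in lungs, and *Retnla* spread widely in every group.

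Tumors were compared with 14-day lungs of hosts of the same genotype by edgeR's quasi-likelihood test with Benjamini-Hochberg adjustment (FDR). A gene was past the limits at an FDR under 0.05 and a change of 2-fold. Among all genes, 38.1% passed between tumor and lung of WT hosts, and 37.1% in KO hosts, so a call here is common. Of the 9 genes, 6 passed in WT hosts and 6 in KO hosts. In each case *Nos2*, *Mrc1*, *Cd163*, *Fcrls* and *Folr2* were higher in tumors and *Lyve1* was lower. Whether a tumor and a lung of the same number came from one mouse is not in the labels.

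*Folr2*, at 13.6 to 29.2 FPKM in tumors and 1.08 to 3.62 in lungs, was higher in tumors by 3.67 ± 0.22 on the log2 scale in WT hosts and 3.62 ± 0.22 in KO hosts. *Nos2* was higher by 2.99 ± 0.47 in WT hosts and 5.11 ± 0.45 in KO hosts, and *Fcrls* by 3.24 ± 0.30 and 1.70 ± 0.31. For both genes the gap between genotypes holds the tumor difference that chose the list, so it is no separate result. *Cd163* was higher by 3.39 ± 0.26 (SE) in WT hosts and 3.65 ± 0.27 in KO hosts.

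*Mrc1*, abundant in both tissues, was higher in tumors by 1.85 ± 0.15 (log2, SE) in WT hosts and 1.61 ± 0.15 in KO hosts. *Csf1r*, with 19.8 to 50.9 FPKM in the 12 tumors and 23.2 to 36.3 in the 20 lungs, differed far less: its log2 fold change was 0.52 ± 0.13 in WT hosts and 0.85 ± 0.13 in KO hosts, with edgeR FDRs of 0.00077 and 1.875e-06 and changes under 2-fold. Relative to *Csf1r* in the same sample, *Folr2* stood at -5.88 ± 0.40 in 14-day WT lungs and -3.05 ± 0.29 in WT tumors (mean difference of log2 CPM, counts scaled to library size, ± SD, n = 6 each). *Lyve1* went the other way, from 0.56 ± 0.53 in those lungs to -2.22 ± 0.61 in those tumors. *Lyve1* is expressed by lymphatic endothelium too, and the summed FPKM of 6 lymphatic genes was 92.1 to 145.9 in lungs and 7.06 to 28.3 in tumors. The part of those cells in the lower tumor level was not tested.

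*Retnla* and *Cx3cr1* did not pass the limits between tissues. *Retnla* had a log2 fold change of 0.81 ± 0.62 (SE) in WT hosts and 0.99 ± 0.62 in KO hosts, with edgeR FDRs of 0.241 and 0.150. *Cx3cr1* had 0.80 ± 0.38 in WT hosts and -0.13 ± 0.39 in KO hosts, with edgeR FDRs of 0.0639 and 0.774. Without WT tumor 6 *Cx3cr1* passed in WT hosts, at 1.01. Their spread within tumors was wide, from 12.8 to 408.0 FPKM for *Retnla* and from 0.83 to 8.72 for *Cx3cr1*.

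Between tumors of KO and WT hosts, 1.06% of all genes tested were past FDR 0.05 and 2-fold, and *Nos2* and *Fcrls* were 2 of them. The list was chosen with that known, so nothing is read from this count. *Nos2* was higher in KO tumors. Its lowest, median and highest values were 11.4, 22.5 and 51 FPKM in KO hosts and 2.75, 4.475 and 14.3 in WT hosts. All KO tumors but 1 lay above every WT tumor, and KO replicate 4 (11.4) lay below WT replicate 6 (14.3). The log2 fold change was 2.21 ± 0.44 (SE), a 4.64-fold difference. It was 1.95 to 2.67 when 1 of the 12 tumors was left out.

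*Fcrls* was lower in KO tumors. It had 3.56, 5.68 and 11.9 FPKM as lowest, median and highest in KO tumors, and 7.27, 18.2 and 26.8 in WT tumors. In KO hosts 4 tumors lay below every WT tumor, and in WT hosts 4 tumors lay above every KO tumor. The log2 fold change was -1.39 ± 0.32 (SE). It was -1.64 to -1.25 when 1 tumor was left out, and -1.38 with the replicate number as a block. *Fcrls* was no longer past FDR 0.05 and 2-fold in 8 of those 12 fits, which left out KO replicate 1, 2, 5 or 6 or WT replicate 1, 2, 3 or 5, nor with the block.

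The other 7 genes were nearer to 0 in tumors. *Csf1r* differed by 0.22 ± 0.15 (log2, SE), *Folr2* by 0.24 ± 0.16, *Mrc1* by -0.12 ± 0.17, *Cd163* by -0.21 ± 0.25, *Lyve1* by -0.05 ± 0.32 and *Retnla* by 0.20 ± 0.67. *Cx3cr1* had -0.56 ± 0.44, with 1.62 to 7.38 FPKM in KO hosts and 0.83 to 8.72 in WT hosts. Relative to *Csf1r* in the same tumor, *Nos2* stood at -0.90 ± 0.81 in KO and -2.91 ± 1.27 in WT hosts, and *Fcrls* at -3.83 ± 0.72 and -2.23 ± 0.36 (log2 CPM ± SD, n = 6 each). The median log2 fold change of the 9 genes was -0.05 and that of all genes was -0.01.

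**Figure D2:**
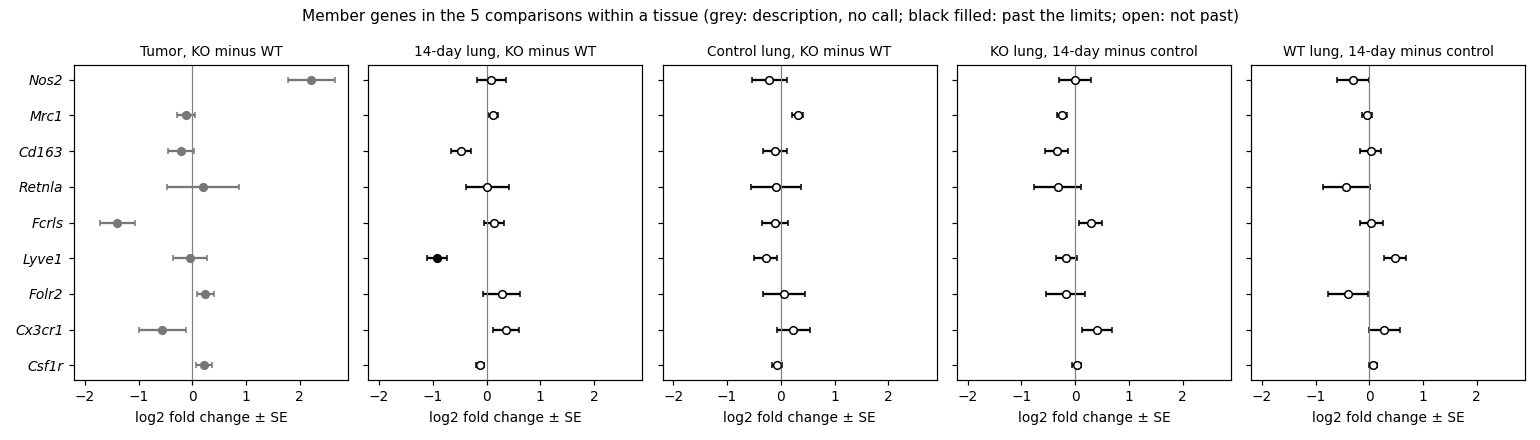
Log2 fold change (edgeR, error bars are SE) of each gene in the 5 comparisons made within a tissue; grey points in the tumor panel are a description with no call, and in the lung panels a black filled point was past FDR 0.25 and 1.5-fold. *Nos2* (2.21) and *Fcrls* (-1.39) lie farthest from 0 in tumors, and *Lyve1* (-0.92) in 14-day lungs is the one filled point of the 4 lung panels.

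Genes of the same programs were read beside these in the tumors, from lists set up with earlier results known, so their counts are no independent evidence. They stand beside 1.06% of all genes past the limits in this comparison. Of 22 classical activation genes, 18 were tested and 8 were higher in KO hosts past the limits, with a median log2 fold change of 1.09. The interferon-induced factor *Irf1* differed by 1.16 ± 0.10 (log2, SE), the chemokine *Cxcl10* by 2.30 ± 0.24 and the guanylate-binding protein *Gbp2* by 1.56 ± 0.21. The T cell-attracting chemokine *Cxcl9*, another of the 8, differed by 3.28 ± 0.44. The cytokine genes *Il1b* (0.34 ± 0.25) and *Tnf* (1.03 ± 0.33) did not pass.

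Of 17 alternative activation genes tested, 2 were higher past the limits, *Pdcd1lg2* (2.17 ± 0.27), which encodes the checkpoint ligand PD-L2, and *Clec7a* (1.46 ± 0.32), which encodes the glucan receptor dectin-1. The median of that list was 0.68. None of the 13 resident macrophage genes tested passed, with a median of 0.04, and none of the 7 microglia-like genes, with a median of -0.08. In the latter list *P2ry12* had -0.17 ± 0.25 and *Tmem119* -0.28 ± 0.15. None of the 12 arginine metabolism genes passed, and *Ass1*, which regenerates arginine from citrulline, had 0.48 ± 0.12. The 15 pan-macrophage genes had a median of 0.46 with 1 past the limits, the protease gene *Ctss* (1.00 ± 0.20).

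Genes of other cells were read in the same tumors. Of T and NK cell genes, 9 of 9 tested had a positive log2 fold change, with a median of 0.76 and 1 past the limits, the T cell receptor subunit gene *Cd3d* (1.46 ± 0.35). The summed FPKM of the 10 listed genes was 37.2 to 60.4 in KO and 19.0 to 52.6 in WT tumors. Of monocyte genes, 8 of 9 were positive, with a median of 0.58 and 1 past the limits, the Fc receptor gene *Fcgr4* (1.53 ± 0.33). Adipocyte genes were positive in 5 of 5, with a median of 0.89, and neutrophil genes in 5 of 5, with a median of 0.41, and none of either passed. The epithelial tumor cell sum was 519.1 to 867.7 in KO and 583.5 to 1105 in WT tumors. Their part in the values of *Nos2* and *Fcrls* was not tested.

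Within each genotype the tumors differed from each other in the balance of these genes. Each tumor's log2 CPM was set against its group mean, and these deviations were correlated over the 12 tumors as a description. *Nos2* and *Fcrls* ran opposite to each other, with a Pearson r of -0.88 (Spearman -0.86). It was -0.883 in the 6 KO tumors, -0.884 in the 6 WT tumors, and -0.903 without the 2 tumors farthest from the median of *Nos2*. The WT tumors with most *Nos2*, replicates 4 and 6, had the least *Fcrls*, and the KO tumors with most *Nos2*, replicates 5 and 6, had the least *Fcrls* of all 12. *Nos2* and *Cx3cr1* also ran opposite, with r = -0.765. That relation was closer in WT (-0.958) than in KO tumors (-0.385), and the difference was not tested.

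**Figure D3:**
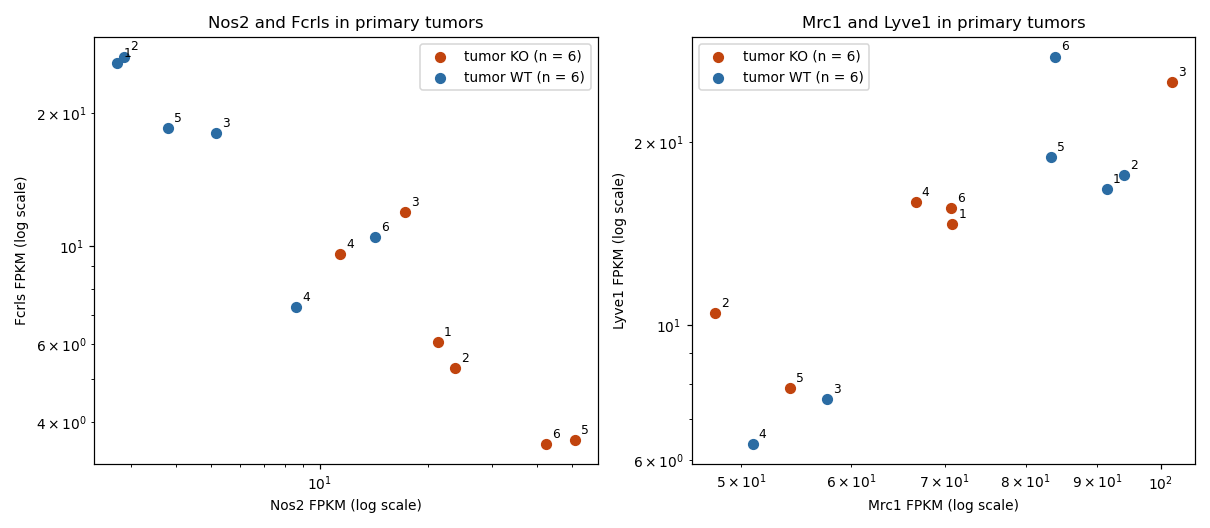
FPKM of *Fcrls* against *Nos2* (left) and of *Lyve1* against *Mrc1* (right) in the 12 primary tumors, both axes on a log scale, with the replicate number beside each point. Red points are 6 KO hosts and blue points 6 WT hosts, and within each host genotype the left panel slopes downward and the right panel upward.

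Another set of genes varied together from tumor to tumor. *Mrc1* and *Lyve1* had r = 0.89, *Mrc1* and *Cd163* 0.816, *Lyve1* and *Folr2* 0.783, *Retnla* and *Lyve1* 0.766, and *Cd163* and *Lyve1* 0.73. *Mrc1* and *Lyve1* were alike in both genotypes (0.913 in KO and 0.914 in WT tumors). *Folr2* was closer to them in WT tumors, with 0.958 to *Lyve1* and 0.937 to *Mrc1*, than in KO tumors, with 0.234 and 0.437, and that difference was not tested. Removing the 2 tumors farthest from the median of the first gene left *Mrc1* and *Lyve1* at 0.845, *Mrc1* and *Cd163* at 0.826, *Lyve1* and *Folr2* at 0.558, *Cd163* and *Lyve1* at 0.745 and *Retnla* and *Lyve1* at 0.603. The last pair had a Spearman correlation of 0.559. In all, 9 of the 36 pairs had an absolute r of at least 0.7 in tumors and 1 of 36 in lungs, where the median r was 0.05 against 0.39 in tumors. The r values rest on 12 tumors and 20 lungs, and *Nos2*, *Folr2* and *Fcrls* had few counts in lungs, so they do not compare the tissues. The points of a tissue share library preparation and differ in depth and cell makeup.

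**Figure D4:**
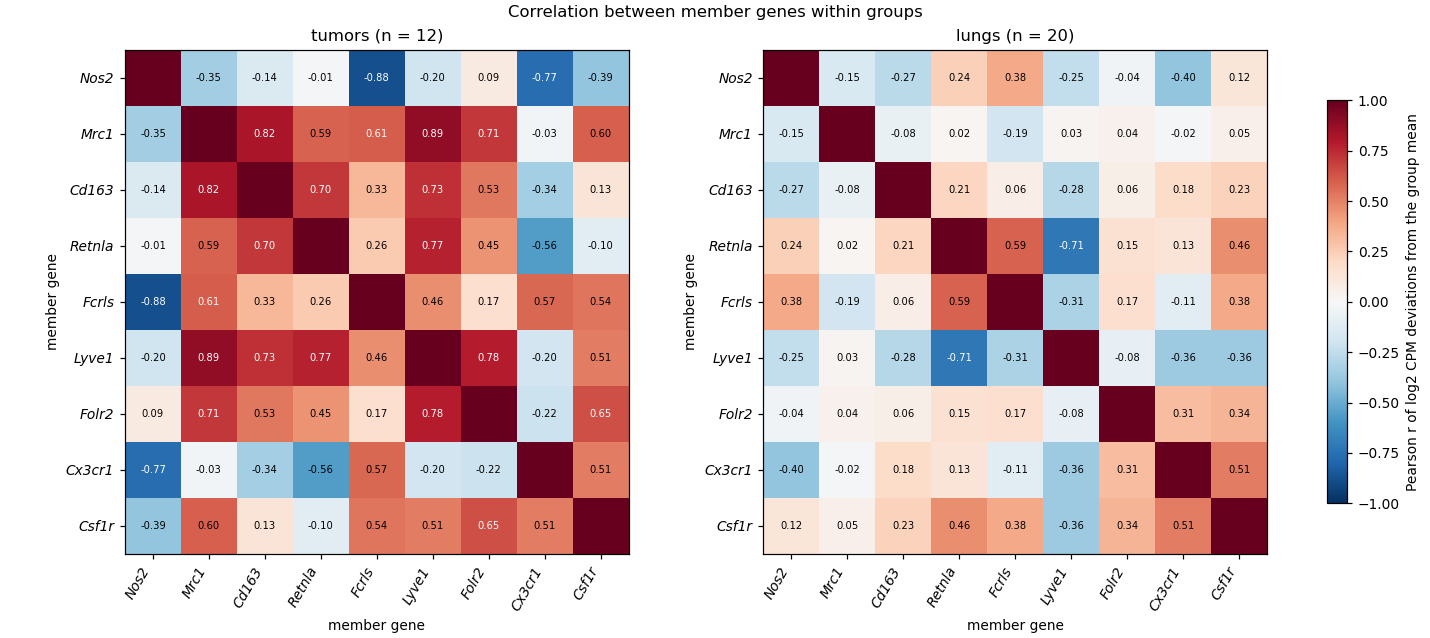
Pearson r between the 9 genes, from log2 CPM less the group mean, over 12 tumors (left) and 20 lungs (right); red is positive and blue negative. In tumors *Mrc1*, *Cd163*, *Retnla*, *Lyve1* and *Folr2* form a red block and *Nos2* is blue against *Fcrls* (-0.88), while in lungs the strongest pair is *Retnla* and *Lyve1* (-0.715).

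Start-site sequences from RefSeq were at hand for 6 of the 9 genes, on GRCm38, and for 3 of the genes of this block they are shown because their levels varied together. Each is the part of a window of 300 bases that precedes the exons. Capitals mark matches, on either strand, to the PU.1 core GAGGAA, the STAT6 site TTCNNNNGAA or the C/EBP pair TTGCNNAA, where N is any base. The GAS site TTCNNNGAA, the ISRE core GAAANNGAAA and the AP-1 site TGANTCA were searched too. The STAT6 and GAS patterns differ in their spacing alone.
*Mrc1*, chr2:14229164-14229391, plus strand: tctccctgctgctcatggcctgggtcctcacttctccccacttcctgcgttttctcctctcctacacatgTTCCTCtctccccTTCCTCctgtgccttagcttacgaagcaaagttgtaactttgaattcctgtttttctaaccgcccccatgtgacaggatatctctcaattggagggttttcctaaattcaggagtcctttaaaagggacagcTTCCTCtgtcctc
*Cd163*, chr6:124304401-124304650, plus strand: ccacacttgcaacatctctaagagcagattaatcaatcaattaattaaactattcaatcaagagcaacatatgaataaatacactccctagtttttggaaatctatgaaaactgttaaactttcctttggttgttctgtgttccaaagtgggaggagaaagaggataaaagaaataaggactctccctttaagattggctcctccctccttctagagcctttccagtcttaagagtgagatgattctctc
*Retnla*, chr16:48842359-48842550, plus strand: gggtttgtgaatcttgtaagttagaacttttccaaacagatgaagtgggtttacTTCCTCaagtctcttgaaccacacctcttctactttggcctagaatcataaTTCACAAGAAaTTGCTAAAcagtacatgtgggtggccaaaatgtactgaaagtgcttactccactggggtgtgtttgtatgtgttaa
The *Mrc1* stretch held the PU.1 core at 3 places, and *Retnla* held it once, with 1 STAT6 match and 1 C/EBP match beside each other. *Cd163* held none of the 6 patterns in its window. Over all 32851 windows, 28.3% held the PU.1 core, 6.95% the STAT6 site, 10.8% the C/EBP pair, 8.3% the GAS site, 3.44% the ISRE core and 7.81% the AP-1 site. Of the other genes, *Folr2*, also of this block, had 2 windows, which are not printed. The AP-1 site was found in 1 of them and no other pattern in either. *Fcrls* held the PU.1 core once in its window and *Cx3cr1* none of the 6 patterns. A match in these letters is no evidence of binding. *Nos2* (chr11:78920787-78960254, plus strand) and *Lyve1* (chr7:110850607-110863239, minus strand) had no window.

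The genes whose pattern over tumors was most like a member were found in the same way, among all genes that passed the filter. *Lyve1* was followed by *Tfec* (0.937), *F13a1* (0.93) and *Cbr2* (0.929). *Csf1r* was followed by the MHC class II genes *H2-Aa* (0.971), *Cd74* (0.957) and *H2-DMb1* (0.955). *Retnla* had *Nfkb1* (0.925), *Ear2* (0.918) and the eosinophil chemokine *Ccl24* (0.916). *Nos2* had the protease *Adamts4* (0.924), *Golga4* (0.922) and the spermine oxidase *Smox* (0.914). *Fcrls* had *Traip* (0.937), *Nt5dc2* (0.912) and *Anapc5* (0.901). Over the 20 lungs the closest genes were *Tax1bp1* for *Lyve1* (0.838), *Myo10* for *Fcrls* (0.815), *Kif5a* for *Csf1r* (0.815), *Nf1* for *Nos2* (0.813) and *Adam9* for *Retnla* (0.804). The highest r found also depends on the number of samples, so tumors and lungs are not compared by it.

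In lungs of tumor-bearing mice, 1 of the 9 genes differed between KO and WT hosts. The limits here were an FDR under 0.25 and 1.5-fold, which 0.212% of all genes passed. That gene was *Lyve1*, the hyaluronan receptor, and it was lower in KO hosts. Its lowest, median and highest levels were 24.8, 36.2 and 63.0 FPKM in the 6 KO lungs and 53.5, 70.05 and 105.6 in the 6 WT lungs. KO replicate 6 (63.0) lay within the WT range, and the other 5 KO lungs lay below every WT lung. The log2 fold change was -0.92 ± 0.18 (SE), with an edgeR FDR of 0.0491.

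*Lyve1* passed in each of the 12 fits that left out 1 of these lungs, with edgeR FDRs between 0.0023 and 0.114 and log2 fold changes of -1.12 to -0.79. In control lungs, without a tumor, the same gene was at 37.9, 48.2, 50.6 and 38.1 FPKM in the 4 KO mice and 57.7, 46.6, 59.3 and 48.0 in the 4 WT mice. The ranges overlapped, and the log2 fold change of -0.28 ± 0.22 (SE) did not pass (edgeR FDR 0.645). Whether the genotype difference grew with the tumor was tested by the interaction. For *Lyve1* it was -0.64 ± 0.28 (SE), with an edgeR FDR of 0.534, so a change with the tumor was not shown.

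Lymphatic endothelium also expresses *Lyve1*, and its genes were read beside it in the 14-day lungs. None of 6 lymphatic genes passed, and their median log2 fold change was -0.09. *Prox1*, the factor that defines lymphatic fate, had -0.27 ± 0.20 (SE), *Pdpn* -0.24 ± 0.12 and the receptor *Flt4* -0.26 ± 0.07. The other 3 were above 0, *Ccl21a* at 0.11 ± 0.12, *Mmrn1* at 0.07 ± 0.11 and *Reln* at 0.14 ± 0.13. Their summed FPKM was 92.1 to 123.3 in KO and 107.1 to 135.7 in WT lungs. None of 10 blood endothelial genes passed, a list added after values were seen, with a median of -0.06. None of 13 resident macrophage genes passed either, with a median of 0.07: *Timd4* had -0.48 ± 0.35, *F13a1* 0.21 ± 0.27 and *Pf4* -0.02 ± 0.19. Which cells carried the difference in *Lyve1* was not tested.

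**Figure D5:**
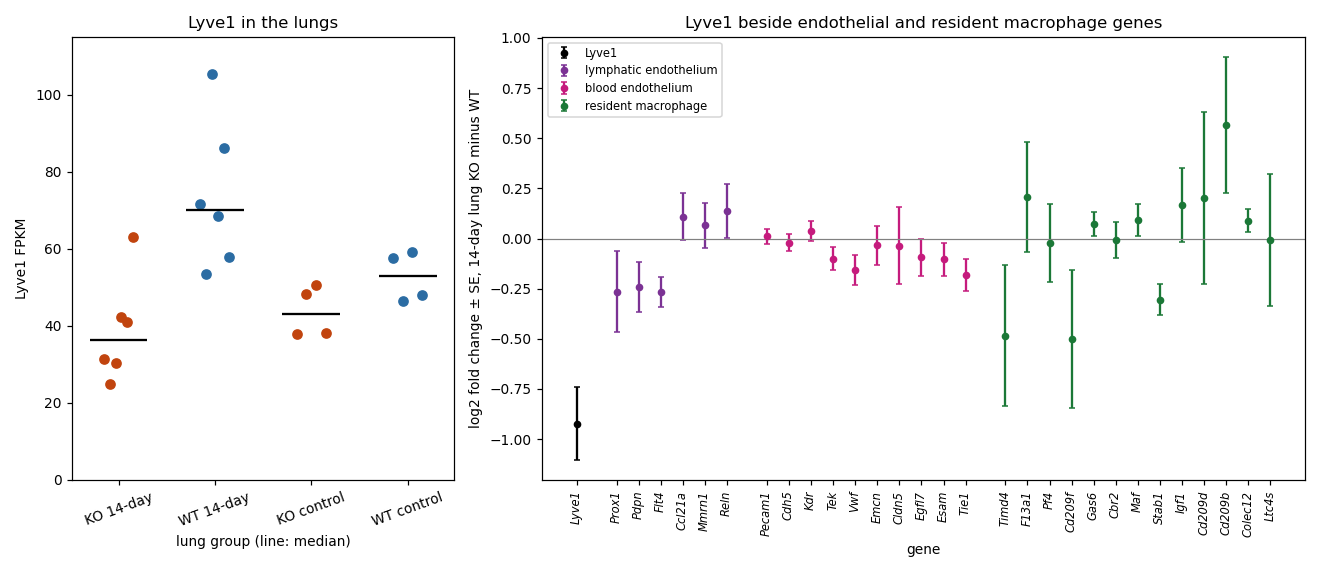
Left, *Lyve1* FPKM in each lung, with black lines at group medians. Right, log2 fold change of KO over WT 14-day lungs (edgeR, bars are SE) for *Lyve1* and for the tested genes of 3 lists. *Lyve1* (-0.92) lies below every one of the listed genes, whose lymphatic members lie between -0.27 (*Prox1*) and 0.14 (*Reln*).

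The other 8 genes did not pass in 14-day lungs, with edgeR FDRs from 0.496 up. *Cd163* was nearest, at -0.47 ± 0.19 (log2, SE), with 0.86 to 1.74 FPKM in KO and 1.22 to 2.25 in WT lungs. *Nos2* and *Fcrls*, which stood out in the tumors, had 0.09 ± 0.27 and 0.14 ± 0.19 here, on 11 to 24 and 15 to 30 counts. Small differences were not detectable at that depth. *Mrc1* (0.12 ± 0.09) and *Csf1r* (-0.12 ± 0.07) were the most precisely measured. *Retnla* and *Lyve1* ran opposite to each other over the 20 lungs, with r = -0.715 (Spearman -0.77), and -0.677 without the 2 lungs farthest from the median of *Retnla*. It was -0.71 in the 10 KO lungs and -0.753 in the 10 WT lungs.

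In control lungs none of the 9 genes differed by genotype past the limits, which 0.231% of all genes passed. At an unadjusted p under 0.05 there was 1, *Mrc1*, beside 11.6% of all genes, and DESeq2 called none. *Mrc1* was at 30.1, 27.4, 28.6 and 27.8 FPKM in KO and 27.8, 19.1, 19.5 and 26.0 in WT mice, a log2 fold change of 0.31 ± 0.11 (SE) with an edgeR FDR of 0.289. The secreted chitinase-like gene *Chil3*, of the alternative activation, alveolar macrophage and monocyte lists, was higher in KO lungs (0.89 ± 0.20, edgeR FDR 0.168). It was the 1 gene of each list past the limits. The alternative activation genes had 9 positive and 6 negative values (median 0.07) and the alveolar macrophage genes 12 and 1 (median 0.11). The monocyte genes had 2 positive and 8 negative values (median -0.20). All 10 T and NK cell genes had a negative log2 fold change there, with a median of -0.56 and 1 past the limits, the perforin gene *Prf1* (-1.01 ± 0.28, edgeR FDR 0.233).

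A primary tumor elsewhere left the 9 genes without a call in the lungs of either genotype. None passed between 14-day and control lungs of KO mice, where 0.262% of all genes passed, nor of WT mice, where 0.574% did. At an unadjusted p under 0.05, 1 of the 9 genes passed in each genotype, *Mrc1* in KO (-0.24 ± 0.10) and *Lyve1* in WT lungs (0.48 ± 0.20, edgeR FDR 0.366), beside 8.64% and 11.8% of all genes, and DESeq2 called none in either. All 6 values of *Mrc1* in 14-day KO lungs (19.8 to 26.6 FPKM) lay below all 4 in control KO lungs (27.4 to 30.1). Of all genes, 1.79% had such separate ranges in that comparison. In WT lungs, *Marco*, a scavenger receptor of alveolar macrophages, fell with the tumor by 1.42 on the log2 scale (SE 0.25, edgeR FDR 0.0935), and in 14-day lungs it was higher in KO than in WT (0.86 ± 0.24, edgeR FDR 0.235). No other of the 13 alveolar macrophage genes passed in either comparison. With the tumor, 9 were negative and 4 positive in WT lungs (median -0.10), and 11 and 2 in KO lungs (median -0.22). Between KO and WT 14-day lungs, 10 were positive and 3 negative (median 0.12). Of 8 neutrophil genes, 8 had a positive log2 fold change with the tumor in WT lungs (median 1.54, 4 past the limits, among them *S100a8* at 2.02 ± 0.54 with an edgeR FDR of 0.164) and 7 in KO lungs (median 1.41, 2 past the limits). None of the 8 passed for the difference between these responses.

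No gene of the 9 had a tumor response that differed between genotypes past an FDR of 0.25, which 0.0499% of all genes passed. At an unadjusted p under 0.05, 1 did, *Lyve1*, beside 8.53% of all genes, and DESeq2 called none. The genotype difference in tumors less that in 14-day lungs, which holds the tumor values that chose the list, is a description for these genes. It was 2.12 ± 0.71 (log2, SE) for *Nos2*, -1.54 ± 0.44 for *Fcrls* and 0.87 ± 0.40 for *Lyve1*. Of all genes, 0.707% were past FDR 0.05 for this difference, and the 9 genes are not read against that share.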

How the data were processed

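RNA of snap-frozen tumor and lung was sequenced from TruSeq stranded mRNA libraries, paired-end. The authors aligned reads to mouse GRCm38 with STAR and estimated gene levels with RSEM. They deposited expected counts per gene and, in a second table, FPKM per gene. Samples were grouped by the labels. Expected counts were rounded. Members and lists were chosen with earlier results of these data known.

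Separate fits were made with edgeR 4.0.16 in R 4.3.3 (TMM scaling, filterByExpr, glmQLFit and glmQLFTest, Benjamini-Hochberg adjustment): the 12 tumors (13830 genes), the 20 lungs (16029 genes), and the 12 tumors with the 12 14-day lungs (16115 genes). Limits were FDR 0.05 and 2-fold for tumors, and FDR 0.25 and 1.5-fold for the tumor response of lungs, as in the study. The first were also used here between tissues and the second between genotypes in lungs; interaction terms had no fold limit. Genes named are the 9 members described (1 listed gene is not reported here), list genes past the limits (at most 4 of a list per direction) or first in a list, the 3 genes most correlated with 5 of the members (of which the first is given for lungs), and *Clic4*. For correlations and levels relative to *Csf1r*, CPM was logged after adding 0.5. Pairs of members with an absolute r of at least 0.7 were picked after values were seen.

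The tumor fit and the lung fit, but not the fit across tissues, were run on simulated counts with known changes, and the outcome is not given here. Same-numbered samples were taken as paired where each of their correlations was over 0.1. No comparison met this, so the main fits had no block, though KO tumors and 14-day KO lungs of the same number may be related. The alternatives were DESeq2 1.42.0, RLE scaling, a filter of 10 counts in each sample or none, a replicate block, a GC offset, the compared groups alone, a limit without a fold, CPM in place of FPKM, another pseudocount and leaving out each sample. P-values measure the spread between these samples. Library depth limits genes of under about 30 counts in lungs. RSEM shares reads among near-identical copies, so *Retnla*, which has close relatives, is less certain.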

Additional observations from a re-analysis of the deposited data

Results flagged for a closer look

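Of 54 sets of 4 to 6 FPKM values, 4 held a sample that stood apart from the rest by Dixon's test at 95%, and chance flags about 1 in 20. *Nos2* was at 1.5 FPKM in control KO lung 4 and at 0.6 to 0.71 in the other 3. *Retnla* was at 408.0 FPKM in WT tumor 6 and at 31.8 to 73.4 in the other 5. In KO tumor 3 *Retnla* was at 365.63 FPKM, with 12.8 to 142.1 in the other 5. *Cx3cr1* was at 7.38 FPKM in KO tumor 4 and at 1.62 to 3.14 in the other 5.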

How the results depend on the processing

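The call of *Lyve1* in 14-day lungs held under all 8 other settings and all 12 fits without 1 lung of that comparison, with edgeR or DESeq2 FDRs up to 0.206. In tumors, where nothing is read from the count since the list was chosen with it known, 2 of the 9 genes were past the limits. The count was 1 with the replicate block and 1 with the block and a GC offset, and ran from 1 to 2 when a tumor was left out. *Fcrls* was lost under both blocks and in 8 of 12 such fits, *Nos2* in none. These values chose the list, so keeping or losing a call here is no evidence for either gene. For the genotype difference in tumor less that in lung likewise known, the count was 0 with edgeR (3 at an unadjusted p under 0.05), 1 with DESeq2 (*Fcrls*), and 0 to 1 when a sample was left out. The cause was not tested. *Lyve1* in tumors, at -0.050, became 0.010 with GC offset and block and ran from -0.25 to 0.20 when a tumor was left out. *Retnla* in tumors, at 0.20, ran from -0.40 to 1.23 in that way, *Retnla* in WT tumors against lungs, at 0.81, from -0.21 to 1.11, and *Nos2* in 14-day lungs, at 0.09, from -0.052 to 0.216. Of 81 differences between groups for the 9 genes, 22 changed sign in some setting, and 0 of these were calls. Same-number correlations ran from -0.28 to 0.25, and in no comparison was each over 0.1. Between KO tumors and 14-day KO lungs all 6 same-number values were above 0 (0.042 to 0.18), and 5 of 6 tumors were most like the lung of their own number, so pairing there is possible and was not settled. The block left 6 calls in that comparison. Besides *Fcrls* in tumors, the block changed no call of the 9 genes. With at least 10 counts in every sample *Folr2* could not be fitted between tissues, which left 5 of the 6 calls in each genotype.

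Depth limited *Nos2*, *Folr2* and *Fcrls* in lungs. The counts over all genes were unsteady in lungs: 34 by genotype in 14-day lungs (7 with DESeq2, 18 from those groups alone, 22 to 52 when a library was left out), 37 in control lungs (20 with DESeq2, 4 with a GC offset, 5 with GC offset and block, 7 with no filter, 246 from those groups alone, 2 to 76 without a library), 42 for the tumor response in KO lungs (21 with a GC offset, 129 with the block, 87 with both, 2 to 60 without a library), 92 in WT lungs (22 with DESeq2, 46 with a GC offset, 58 with no filter, 152 with the block, 11 to 176 without a library) and 8 for the interaction (195 with DESeq2, 1 with a GC offset or block, 1 to 127 without a library). Between tissues the calls were 6143 in WT hosts and 5982 in KO hosts (3002 and 2831 among genes with at least 10 counts in every sample), and 114 for the difference of genotype differences (197 with DESeq2, 46 to 201 without a library). The shares of all genes past the limits rest on these counts.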
